A study of Mus musculus with 6 samples.

Results

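The regions described here were the distal intergenic loss of methylation DMRs of mouse lung endothelial cells (EC), 365 of the 18,333 differentially methylated regions (DMRs) listed for the comparison of infant with young adult mice. A DMR was counted when it lay on chromosomes 1 to 19, when its young adult mean methylation was below its infant mean, when its midpoint lay outside every curated RefSeq gene body and when that midpoint was more than 50 kb from the nearest transcription start site (TSS). The regions were thus chosen by the direction of the measured change and by position, and the methylation values below are given as a description without a test. Lung EC were sorted as CD31+CD34+ cells without PTPRC, LYVE1, LY76 and PDPN from C57BL/6N mice, which the paper describes as female. The labels name neither an engineered allele nor a treatment. There were 3 infant samples, from mice aged 8 to 10 days, and 3 young adult samples, from mice aged 8 to 12 weeks. Methylation was measured by T-WGBS, a whole genome bisulfite method in which a transposase adds the adaptors and bisulfite converts unmethylated cytosines. Each DMR carried 1 mean per group, so the spread between mice and the sequencing depth of a DMR were unknown and only the group means are shown. RNA was not analysed here, and the identity of the sorted cells was not checked here against marker genes. The paper reports a check of sorting purity by marker gene expression.

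Methylation of cytosine in CpG dinucleotides is laid down by DNA methyltransferases and can be lost by dilution at replication or by TET-driven oxidation. Outside promoters, stretches of low or intermediate methylation often mark enhancers, the elements at which transcription factors bind and which can act on a promoter over long distances. The nearest gene of a distal region is therefore a position label, and whether the region acts on that gene was not tested.

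Sequences are shown of the 5 DMRs with the largest loss and of the one near *B3gnt2*, a shorter DMR among the 10 largest, to show the bases and CpGs behind such changes. They were read from the plus strand of GRCm38 (mm10), run from the first to the last CpG of the DMR, and are named by the gene of the nearest TSS, with CpGs in capitals.
Hpgd DMR (chr8:56344704-56344836): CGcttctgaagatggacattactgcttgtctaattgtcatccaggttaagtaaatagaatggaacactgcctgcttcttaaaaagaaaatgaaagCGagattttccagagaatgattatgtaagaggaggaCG
Dhrs3 DMR (chr4:144957324-144957400): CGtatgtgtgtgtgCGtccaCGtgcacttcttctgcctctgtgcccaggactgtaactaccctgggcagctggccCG
Ryk DMR (chr9:102914360-102914391): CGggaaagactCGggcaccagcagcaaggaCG
Il6st DMR (chr13:112403166-112403285): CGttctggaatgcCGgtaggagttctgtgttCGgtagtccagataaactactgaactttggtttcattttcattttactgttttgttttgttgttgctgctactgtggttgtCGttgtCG
Tmem100 DMR (chr11:90128749-90128950): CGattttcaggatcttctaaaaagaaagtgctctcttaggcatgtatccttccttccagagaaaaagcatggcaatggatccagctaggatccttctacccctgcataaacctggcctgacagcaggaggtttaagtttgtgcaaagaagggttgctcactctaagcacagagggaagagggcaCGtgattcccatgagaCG
B3gnt2 DMR (chr11:22743682-22743728): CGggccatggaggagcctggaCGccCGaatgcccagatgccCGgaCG

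The DMR 50.2 kb downstream of the TSS of *Hpgd*, which encodes the enzyme that inactivates prostaglandins, went from a mean of 78.9% in infant to 7.76% in young adult EC. This difference of -71.2 percentage points was the largest of the 365. Beyond the end of *Dhrs3*, a retinaldehyde reductase gene, and within a predicted transcript of *Vps13d*, a DMR of 4 CpGs went from 71.9% to 6.55%. Between *Ryk*, encoding a Wnt co-receptor, and *Slco2a1*, encoding a prostaglandin transporter, a DMR of only 32 bp went from 74.6% to 11.4%. The DMR 60.8 kb upstream of *Il6st*, the gene of the shared cytokine receptor subunit gp130, started higher and went from 89.6% to 26.5%. A DMR 98.5 kb downstream of the TSS of *Tmem100*, which encodes an endothelial membrane protein, went from 68.0% to 13.8%. The other 5 of the 10 had as nearest genes *Jcad*, which encodes a junction protein of EC, *Fam50b*, *Sh3tc2*, known for its role in Schwann cells, *B3gnt2*, a glycosyltransferase gene, and *Papss1*, which encodes a synthase of the sulfate donor PAPS. Their differences lay between -53.5 and -51.9 percentage points, close together and smaller than the 5 losses described first. The *Papss1* DMR held 8 CpGs and lay 242 kb from the TSS, inside a GENCODE lincRNA, and the *Fam50b* DMR also lay in a GENCODE lincRNA.

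Over all 365 DMRs the median methylation was 60.1% in infant EC, with a middle range of 46.5% to 73.4%. In young adult EC the median was 26.5%, with a middle range of 14.3% to 40.6%. The median difference was -30.5 percentage points, and the differences spanned -71.2 to -10.9. Most of these regions were thus partly methylated in infant EC: 249 (68.2%) had an infant mean of at least 40% and under 80%, 55 (15.1%) had 80% or more and 61 (16.7%) had under 40%. In young adult EC 138 of the 365 regions (37.8%) were under 20% and 60 (16.4%) were under 10%, whereas 20 (5.48%) kept at least 60%. Under 20% were 42.2% of the intergenic losses within 50 kb and 37.5% of the gene body losses. Under 10% were 21.3% and 16.2%, and 3.03% and 3.42% kept at least 60%. A loss of at least 30 points was seen in 192 of the 365 distal DMRs (52.6%; 95% Wilson interval 47.5% to 57.7%), beside 61.2% of all autosomal loss DMRs. This share was 55.1% in intergenic loss DMRs within 50 kb of a TSS and 62.6% in loss DMRs of gene bodies. The 3 classes had close infant medians of 60.1%, 57.9% and 62.1% in that order (distal, near and gene body), and young adult medians of 26.5%, 22.7% and 25.7%.

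**Figure D1:**
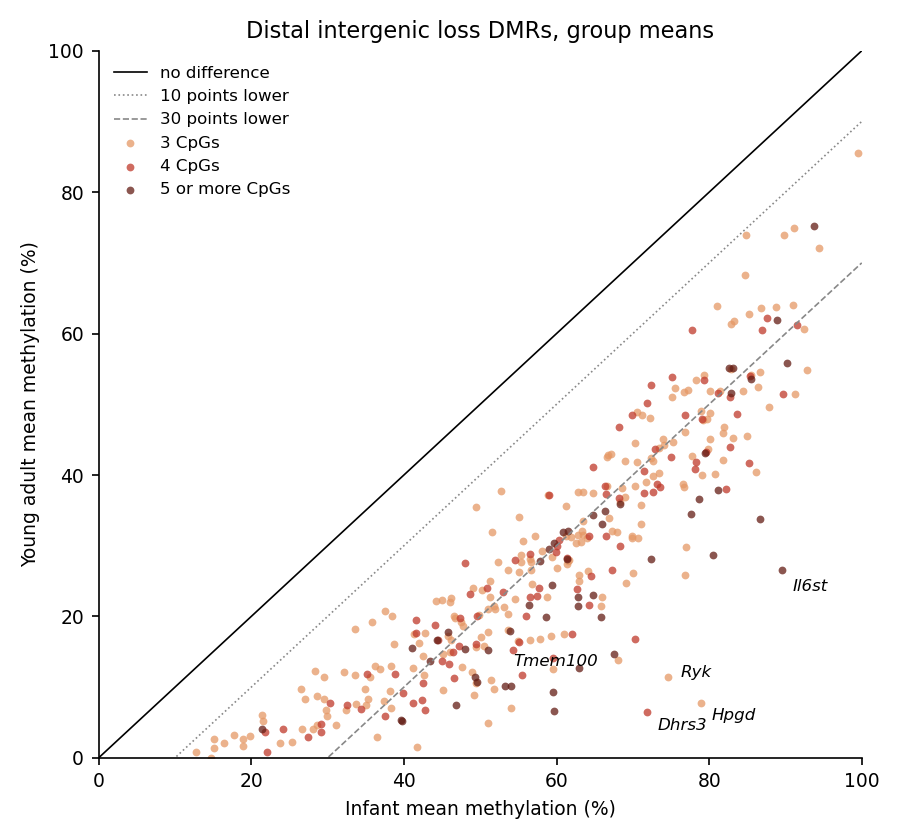
Young adult against infant mean methylation (%) of the 365 distal intergenic loss DMRs, each point a DMR coloured by its number of CpGs, with lines for no difference and for 10 and 30 points lower. All points lie below the line of 10 points, which the authors' threshold fixed, and the 5 named by their nearest gene are the largest losses, at -54.2 to -71.2 points.

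The DMRs were short. Their median width was 113 bp (8 to 863 bp), 222 (60.8%) held exactly the minimum of 3 CpGs and 51 (13.97%) held at least 5, with a maximum of 9. Among distal intergenic gain of methylation DMRs, 81.7% held exactly 3 CpGs. This share was 55.8% in near intergenic loss DMRs and 51.5% in loss DMRs of gene bodies. The median difference was -29.2 points in regions of 3 CpGs, -31.2 in those of 4 and -34.7 in those of 5 or more. The loss hardly varied with distance, with medians of -30.5, -30.8 and -30.2 points at 50 to 100, 100 to 200 and beyond 200 kb.

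Of the 18,168 autosomal DMRs 46.3% were losses, but among the intergenic DMRs beyond 50 kb the share was 14.9%. This share depended on the limits set, with 25.9% for differences of at least 20 points, 30.7% for at least 5 CpGs and 9.86% with predicted transcripts as genes. The distal regions made up 4.34% of autosomal loss DMRs, while 26.6% of autosomal CpGs lay in such sequence. Per 10,000 CpGs of the reference there were 0.674 distal loss DMRs, compared with 2.08 in intergenic sequence within 50 kb and 7.07 in gene bodies. The loss density decreased from 1.30 at 50 to 100 kb to 0.789 at 100 to 200 kb and 0.142 beyond 200 kb. Gain DMRs thinned out less over the same bins, from 5.07 to 4.28 and 2.69 per 10,000 CpGs. As a consequence, losses formed 20.5% (18.1% to 23.0%), 15.6% (13.2% to 18.3%) and 5.01% (3.57% to 6.98%) of the intergenic DMRs in these bins. Both axes of this comparison belong to the rule that chose the regions, and the CpGs covered well enough to enter the authors' test were not known, so the densities stand as a description.

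**Figure D2:**
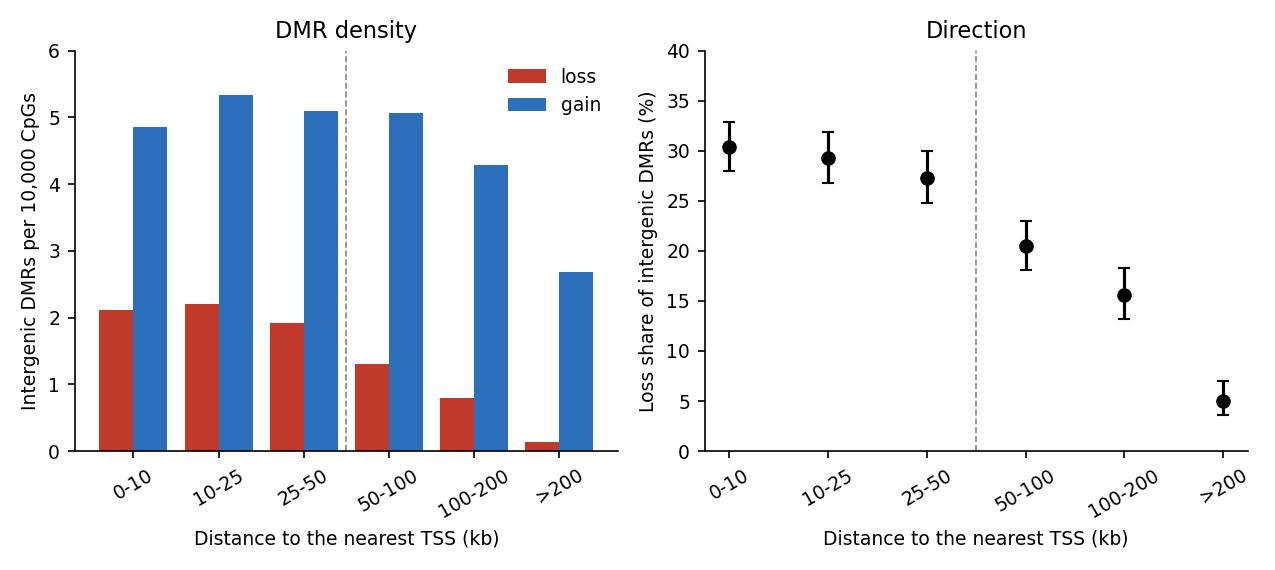
Left, intergenic DMRs per 10,000 reference CpGs (bars from 0) by distance of the midpoint to the nearest TSS in kb, for loss and gain of methylation. Right, the share of losses (%) with 95% Wilson intervals; the dashed line marks 50 kb, and the loss density is 1.30, 0.789 and 0.142 in the 3 bins beyond it.

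The chromosomes differed in how many of these regions they held. Chromosome 3 had 36, chromosome 8 had 35 and chromosome 5 had 33, whereas chromosomes 13 and 15 had 8 each. Per 10,000 distal CpGs the highest value was 1.21 on chromosome 18 and the lowest 0.262 on chromosome 13.

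The median distance to the nearest TSS was 87.8 kb, with 213 DMRs between 50 and 100 kb, 120 between 100 and 200 kb and 32 beyond. They lay upstream (185) about as often as downstream (180), and the nearest TSS belonged to a protein-coding gene in 257 (70.4%). Just beyond the distance minimum were DMRs near *Kalrn* (50.02 kb; 79.8% in infant and 43.7% in young adult EC), *Klf9* (50.16 kb; 71.2% and 48.4%) and *Hpgd* (50.22 kb). Just within it were loss DMRs near 4930452A19Rik (49.8 kb; 98.2% and 84.8%), *Jun* (49.6 kb; 84.1% and 60.05%) and Gm4793 (49.4 kb; 81.4% and 40.9%). The farthest was a DMR 748 kb upstream of *Slit2*, a guidance ligand gene, which went from 57.2% to 31.4%. It was followed by one 631 kb from Gm10745 (32.2% and 12.1%) and one 479 kb upstream of *Adamts9*, a matrix protease gene (46.1% and 22.0%).

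The name intergenic depended on the annotation. The midpoints of 108 DMRs (29.6%) lay in a gene of GENCODE, 41 of them in a protein-coding gene and 51 in a lincRNA, and 113 (31.0%) lay in a predicted RefSeq transcript. In neither were 208 (56.99%), compared with 73.0% of distal gain DMRs and 59.9% of near intergenic loss DMRs. With predicted transcripts counted as genes for the distance as well, 109 DMRs met the rule, and with protein-coding genes alone 573 did. The *Kalrn* DMR just past 50 kb, for example, lay inside *Kalrn* itself in GENCODE. In the 208 the median difference was -30.7 points and in the other 157 it was -29.7 points.

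The surroundings of the regions were examined for other DMRs. Another DMR was found within 10 kb of 177 regions (48.5%), and for 121 of these (68.4%) the nearest one was also a loss. Of the distal gain DMRs 23.0% had a DMR within 10 kb, and in 13.1% of these the nearest was a loss. The gain DMRs lay farther from a TSS, at a median of 122 kb beside 87.8 kb, and were not matched for distance. Neighbours of near intergenic and gene body losses were not counted, so this closeness is not shown to be particular to distal loss. Within 50 kb a DMR was found for 294 of the regions, and the nearest was a loss in 164 of these (55.8%; distal gain 15.6%). Linked at gaps of at most 10 kb, the 365 regions formed 295 runs, of which 246 held a single DMR and 49 held 2 or more. These 49 runs contained 119 of the regions and no gain DMR. Each run spanned at most 22.4 kb, and how many gains would lie in spans this short was not computed. Regions in such runs had a median difference of -32.2 points, and single ones of -29.6 points. A run of 5 DMRs within 2.70 kb lay 6.12 to 8.60 kb beyond the end of *Tbc1d1*, which encodes a regulator of glucose transporter traffic. Sequences of 4 of them are given under the name of *Tbc1d1*, though the nearest TSS was that of 1700027F09Rik, with CpGs in capitals, to show neighbouring DMRs of 1 run. The fifth, of 349 bp and 5 CpGs, is longer and is not printed.
Tbc1d1 DMR of 107 bp (chr5:64358633-64358739): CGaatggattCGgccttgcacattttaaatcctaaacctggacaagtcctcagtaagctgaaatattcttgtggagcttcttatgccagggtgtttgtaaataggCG
Tbc1d1 DMR of 14 bp (chr5:64359021-64359034): CGatatCGcaagCG
Tbc1d1 DMR of 13 bp (chr5:64359194-64359206): CGgtcaggCGcCG
Tbc1d1 DMR of 89 bp (chr5:64360042-64360130): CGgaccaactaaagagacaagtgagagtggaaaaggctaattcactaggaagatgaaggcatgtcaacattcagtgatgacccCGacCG

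The longest DMR of the run, of 349 bp, went from 64.7% to 34.3%. The DMR of 107 bp went from 75.1% to 51.1%, and the one with 3 CpGs in 14 bp from 34.9% to 9.73%. Its neighbour of 13 bp, centred 0.172 kb away, went from 65.8% to 21.4%, and the DMR of 89 bp from 45.1% to 9.53%. Neighbouring DMRs of this run thus started from unequal infant levels, while all went down. In the run of 4 DMRs beyond *Nhlrc2* the infant means also ranged widely, from 61.3% to 92.9%, with differences of -38.0 to -32.7 points. Near *Mdm1* the 3 DMRs of a run went from 82.6% to 55.2%, from 28.6% to 4.70% and from 21.8% to 3.69%. Near *Ackr3*, which encodes the scavenging receptor of the chemokine CXCL12, the 3 DMRs of a run lay 72.3 to 79.5 kb downstream of the TSS, within a predicted transcript. Their means went from 24.1% to 4.15%, from 56.5% to 22.8% and from 57.8% to 16.8%.

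Other regions gathered in single gaps between genes. Between *Psd3*, which encodes an exchange factor for the GTPase ARF6, and the adaptor gene *Sh2d4a* there were 7 of the regions and no gain. These stayed higher in young adult EC, at 20.1% to 60.6%, after infant means of 46.6% to 92.4%. In the gap between *Tmem100* and *Mmd* the 4 distal regions went from 42.5% to 68.0% down to 9.32% to 17.1%, and 4 more losses lay in the 10.9 kb next to *Tmem100*, again with no gain.

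**Figure D3:**
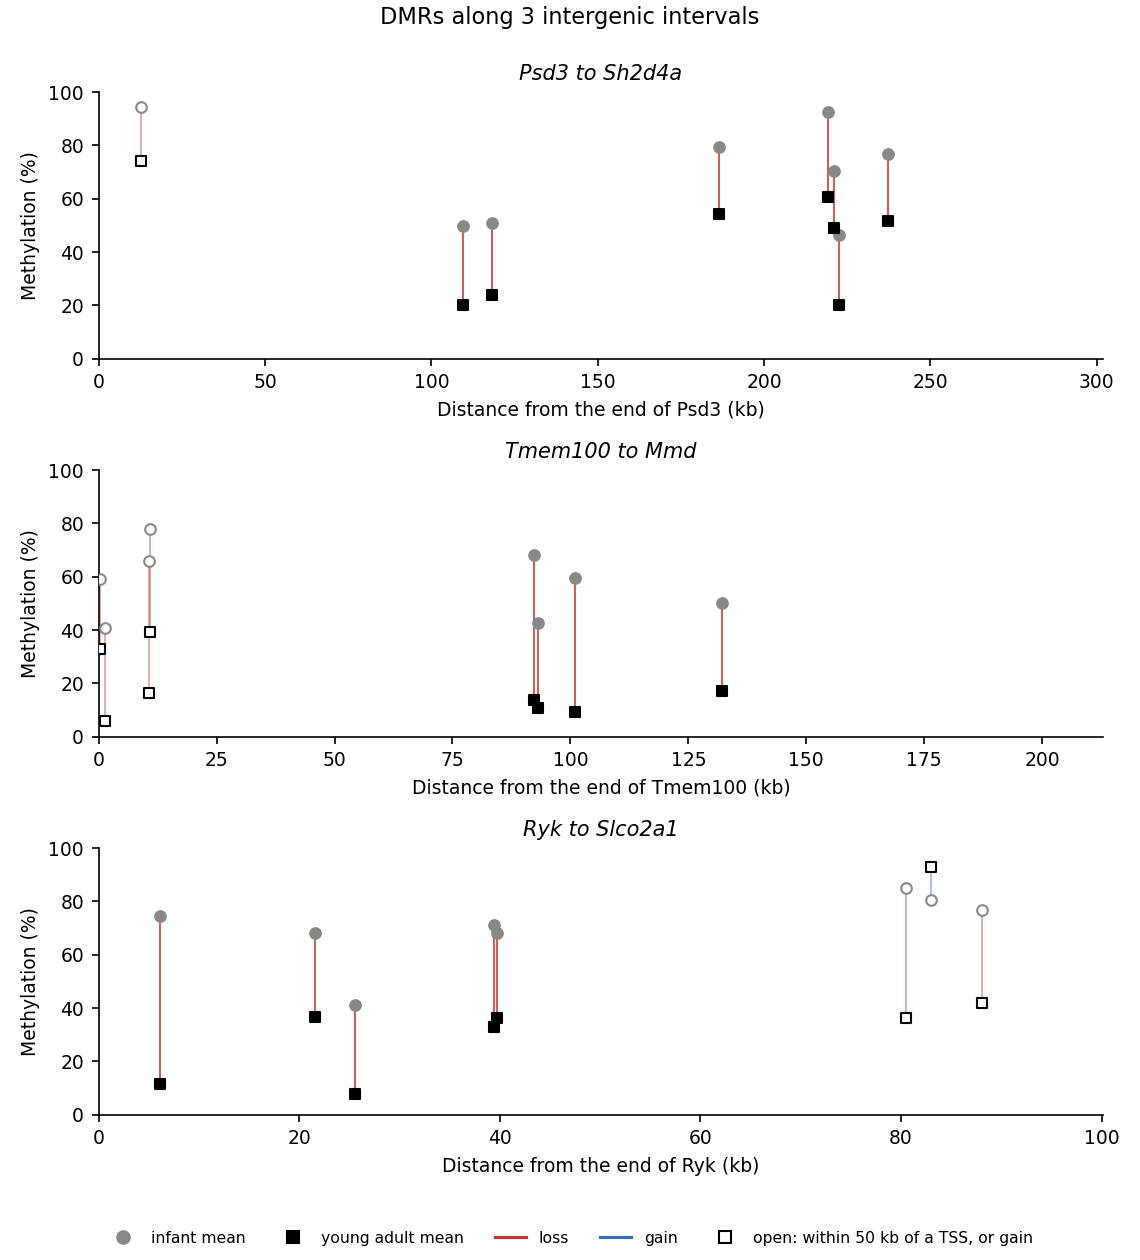
Mean methylation (%) of the intergenic DMRs in the gaps from Psd3 to Sh2d4a, Tmem100 to Mmd and Ryk to Slco2a1, by distance (kb) from the end of the first gene; circles are infant and squares young adult means, lines join the pair, and open symbols are DMRs within 50 kb of a TSS or gains. The 7, 4 and 5 filled pairs all go down, and the gain DMR is in the third gap.

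Losses and gains shared other gaps. Between 4930452A19Rik and *Qk*, the gene of the RNA-binding protein quaking, 7 distal losses with differences of -31.4 to -21.3 points were interspersed with 5 gains. Beyond *Klf12*, encoding a repressor of the Krüppel-like family, 5 distal losses lay at 63.2 to 125 kb and 5 gains from 195 kb onward. In the gap between *Ryk* and *Slco2a1* 5 distal losses lay 6.07 to 39.7 kb beyond *Ryk*. In all, the regions fell into 220 gaps between genes, 147 of which held 1 region and 49 of which held no gain DMR. By nearest TSS they belonged to 243 genes, 174 of them with 1 region. Among the genes with the most were 4930452A19Rik and 1700027F09Rik (6 each) and *Klf12*, *Sh3tc2*, Gm1653 and *Sh2d4a* (5 each). Then came *Papss1*, with 4 regions between 80.2 and 242 kb downstream and differences of -51.9 to -37.1 points, *Adgrl2*, which encodes a latrophilin adhesion receptor, and A630001O12Rik, and *Slco2a1* also had 4.

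Of 50 endothelial transcription factor genes, 4 were nearest to 7 of the regions (1.92%; all autosomal DMRs 1.93%). The flow-responsive factor gene *Klf4* had 3 upstream DMRs, which went from 64.8% to 23.1% at 73.3 kb, from 49.6% to 19.99% at 118 kb and from 28.6% to 8.70% at 60.6 kb. Downstream of *Ets1*, a member of the ETS family active in EC, a DMR went from 55.4% to 11.7%, and its neighbour 0.238 kb farther on from 77.7% to 60.5%. A DMR near *Ets2* went from 56.4% to 21.7%, and one upstream of *Mef2a* from 87.6% to 62.3%. The list of 48 endothelial surface and secreted proteins had 6 regions (1.64%; all DMRs 1.36%). Besides *Tmem100*, with 3, these were single DMRs near *Calcrl*, encoding the receptor of adrenomedullin (51.4% to 11.0%), *S1pr1*, the gene of a sphingosine 1-phosphate receptor (26.6% to 4.14%), and *Cd34*, whose protein was used for sorting (72.6% to 41.9%).

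Among the ligands, receptors and inhibitors of growth factor pathways, 5 regions (1.37%; all DMRs 1.35%) lay next to TGFβ and BMP family genes. Downstream of *Smad6*, which encodes an inhibitory SMAD, 3 DMRs went from 76.8% to 25.8%, from 51.0% to 15.3% and from 51.0% to 4.90%, all 70.4 to 78.5 kb from the TSS. The others lay upstream of the ligand gene *Bmp2* (21.5% to 4.12%) and of the receptor gene *Acvr2a* (29.2% to 3.69%). The list of VEGF, angiopoietin, FGF, PDGF and apelin signalling, which also held genes of KIT and of other receptor tyrosine kinases and their inhibitors, had 6 (1.64%; all DMRs 1.12%). Of the families in its name only FGF was met, by 1 of these DMRs. The 6 were 3 around *Kitl*, the ligand of KIT, with differences of -36.4 to -25.8 points, and 1 each near *Kit* itself (91.3% to 51.5%), *Fgfr2* (49.0% to 24.1%) and *Spred2*, an inhibitor of the RAS pathway (37.6% to 20.7%). The *Fgfr2* DMR lay inside *Fgfr2* in GENCODE. None of the 61 genes on the list for Notch and Wnt was the nearest to a distal loss DMR, compared with 0.583% of all DMRs. That list left out *Ryk* and the Wnt receptor gene *Ror1* (71.1% to 35.7%), each nearest to 1 of the regions, so its 0 does not stand for all genes of these pathways.

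Genes of the matrix and of guidance followed. Of 59 matrix genes, 56 of them found in the annotation, 3 were nearest to 6 regions (1.64%; all DMRs 0.617%; distal gain 0.527%). Upstream of *Eln*, the elastin gene, 3 DMRs went from 72.6% to 37.6%, from 58.1% to 29.2% and from 38.2% to 9.41%, within the antisense gene Gm30003 of GENCODE, and the others lay near *Adamts9* (2) and the protease gene *Adamts5* (61.0% to 17.5%). Since 3 of these 6 lay at 1 gene, the share rests on few loci. Semaphorin, plexin and other guidance genes had 5 (1.37%; all DMRs 1.22%), with 2 near *Sema6a* (54.3% to 15.2% and 52.0% to 21.1%), which lay in *Commd10* in GENCODE, 2 downstream of *Efnb2*, which encodes the ligand ephrin-B2 (41.0% to 15.6% and 45.03% to 22.3%), and the 1 near *Slit2*. Of 71 adhesion and synaptic genes of neurons *Pcdh18* had 1 region (29.9% to 5.92%), and of 103 developmental transcription factors none had any. In the neuronal list the share was 0.274%, beside 0.523% of all DMRs, none of the near loss and 2.16% of the distal gain DMRs. In the developmental list it was 0%, beside 1.02%, 0.378% and 2.69%.

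**Figure D4:**
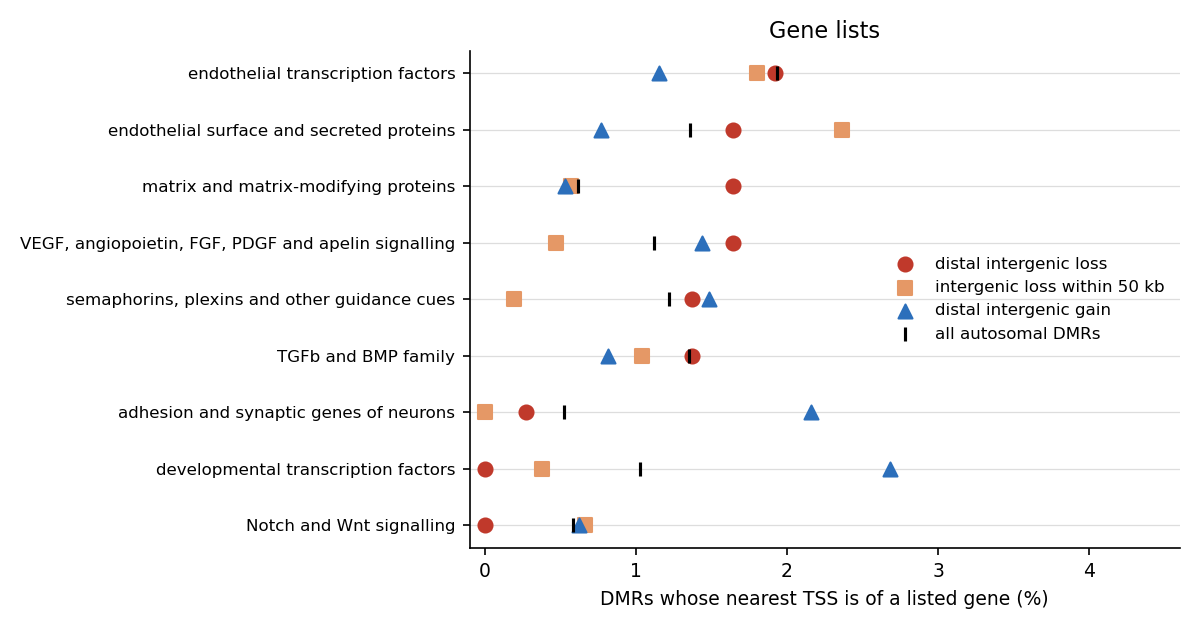
Share of DMRs (%) whose nearest TSS was that of a gene on each of 9 lists, for distal intergenic loss, intergenic loss within 50 kb of a TSS, distal intergenic gain and all autosomal DMRs. The distal loss shares run from 0% to 1.92%, and the gain shares of 2.16% and 2.69% stand for the neuronal and developmental lists.

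Sequence was not part of the rule and was compared between the distal loss DMRs and, on the one hand, the 1057 intergenic loss DMRs within 50 kb and, on the other, the 2086 distal gain DMRs. Repeats were less frequent in the distal loss DMRs than in both of these classes. The middle base lay in a masked repeat in 9.86% of the distal loss DMRs, in 18.6% of the near loss DMRs and in 19.8% of the distal gain DMRs. The differences were -8.78 points (95% Newcombe interval -12.4 to -4.63) and -9.98 points (-13.2 to -6.12). Within gene bodies the share was 13.2% in loss and 12.7% in gain DMRs. Both values lay inside the 95% Wilson interval of the distal loss share (7.21% to 13.35%). In windows of 200 bp with at least 3 CpGs from all distal sequence of the genome the share was 38.3%, but which of these windows could be aligned and covered was not tested. The median GC content of the 200 bp around the midpoint was 47.0%. In near loss DMRs it was 48.5%, a shift of -1.5 points (-2.5 to -1.0 by the Hodges-Lehmann estimate). In distal gain DMRs it was 46.0%, a shift of 1.0 (0.5 to 2.0). The genome windows with at least 3 CpGs had a mean GC content of 45.8% in distal and 48.0% in near intergenic sequence. CpG islands by length, GC content and CpG ratio were overlapped by 39 (10.7%), with differences of 0.373 points (-3.03 to 4.34) and 0.474 points (-2.62 to 4.27) from the near loss and the distal gain DMRs, and islands by stricter limits by none. With a distance minimum of 25 kb the repeat differences were -3.99 and -4.43 points, in DMRs of at least 5 CpGs both intervals included 0, and with windows of 400 bp that from near loss did (-2.38; -5.05 to 0.866). The interval of the GC shift from near loss reached 0 with 25 kb (-0.5), predicted transcripts and at least 5 CpGs, and that from distal gain with 100 kb, windows of 100 bp, differences of at least 20 points (0.5; -0.5 to 1.0) and at least 5 CpGs (-1.5; -3.5 to 0.5).

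Motifs of 11 families were searched as exact letters on both strands in the 200 bp windows. The letters were AGGAAG for ETS, TGTTTAC for FOX, AGATAA for the GATA factors, TGANTCA for AP-1, ACAATGG for SOX, GGGTGTG for KLF, ACATTCC for TEAD, TGTGGTT for RUNX, AGGTCA for nuclear receptors, CAGCTG for the E-box and AGGGGGC for CTCF, and matches of different families may overlap. The KLF letters were more frequent in the distal loss than in the distal gain windows (7.95% and 3.36%). This difference of 4.59 points was the one of the 22 computed that stayed above 0 in intervals adjusted for their number (0.952 to 10.1). The motifs were chosen with earlier results of these data known, and the adjustment does not cover that choice. In intervals of 95% the ETS letters (32.3% and 26.7%; difference 5.68, 0.690 to 11.0), the GATA letters (17.3% and 12.1%; difference 5.13, 1.31 to 9.55) and the FOX letters (5.48% and 3.07%; difference 2.41, 0.334 to 5.32) also exceeded those of distal gain, but not after the adjustment. Against the near loss DMRs the 95% intervals of all 11 families included 0. For KLF the shares were 7.95% and 7.85% (difference 0.0928, -2.86 to 3.64), and for ETS 32.3% and 27.2% (difference 5.18, -0.182 to 10.8). Of all distal windows of the genome 20.7% held the ETS, 11.1% the GATA, 3.63% the KLF and 3.18% the FOX letters.

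**Figure D5:**
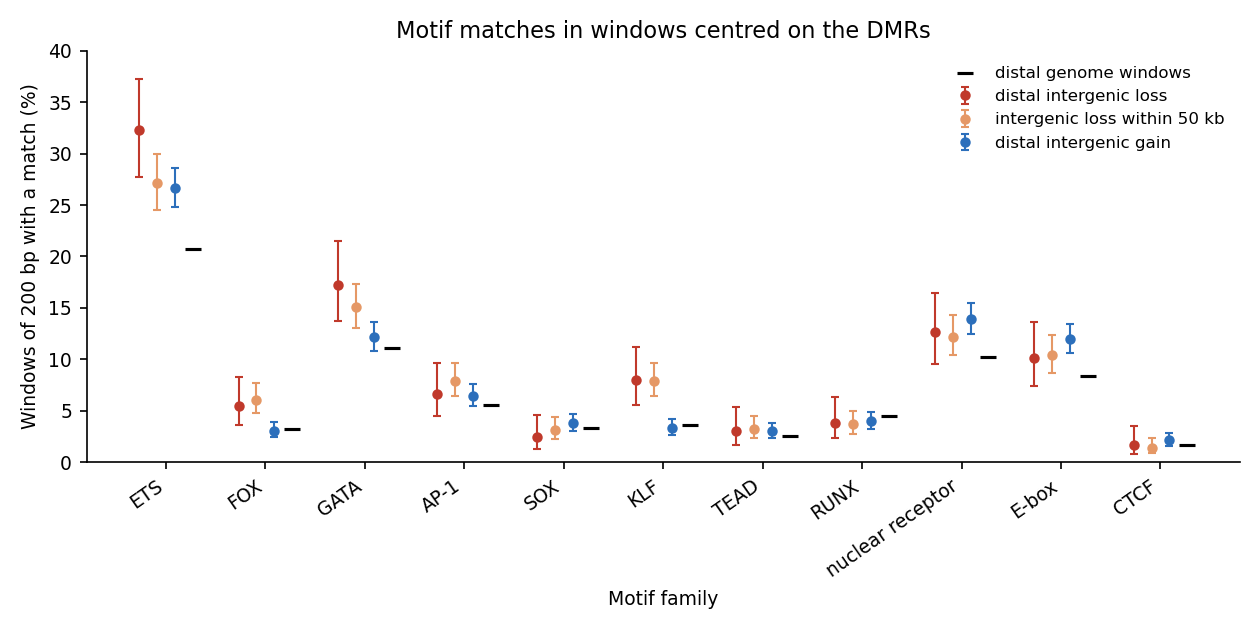
Share of 200 bp windows (%) with a match to each of 11 motif families, with 95% Wilson intervals for distal intergenic loss, near intergenic loss and distal intergenic gain DMRs and dashes for all distal windows of the genome. The KLF share is 7.95% in distal loss and 3.36% in distal gain, and the ETS shares are 32.3%, 27.2% and 26.7% in the order of the groups.

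The following windows of 200 bp, again from the plus strand, show such matches in regions described above, with the motif or its reverse complement in capitals.
Ackr3 window with a KLF match (chr1:90276171-90276370): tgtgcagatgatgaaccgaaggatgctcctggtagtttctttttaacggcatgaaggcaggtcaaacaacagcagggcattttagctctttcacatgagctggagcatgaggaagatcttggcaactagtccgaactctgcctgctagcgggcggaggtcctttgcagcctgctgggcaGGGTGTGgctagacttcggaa
Ackr3 window with a GATA match (chr1:90283358-90283557): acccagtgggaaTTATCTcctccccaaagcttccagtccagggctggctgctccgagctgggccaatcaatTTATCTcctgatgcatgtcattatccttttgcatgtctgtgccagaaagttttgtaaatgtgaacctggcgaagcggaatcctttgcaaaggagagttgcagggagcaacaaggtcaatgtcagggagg
Tmem100 window with an ETS match (chr11:90128750-90128949): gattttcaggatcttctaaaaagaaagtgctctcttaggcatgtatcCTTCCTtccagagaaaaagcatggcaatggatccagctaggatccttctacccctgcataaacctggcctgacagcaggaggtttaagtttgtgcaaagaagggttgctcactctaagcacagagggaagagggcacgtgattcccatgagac

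A match shows the letters and not a bound factor, and windows without them are no measure of binding. The KLF difference from distal gain did not pass with windows of 100 bp (2.11 points), with predicted transcripts counted as genes (3.71) or with DMRs of at least 5 CpGs (2.40). It passed with 1 DMR counted per run (5.61 points, 1.47 to 12.1), which removes neighbours that share their surroundings. The ETS difference from distal gain turned to -0.443 points with differences of at least 20 points and to -7.76 with at least 5 CpGs.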

How the data were processed

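Samples were the 3 infant and 3 young adult T-WGBS samples described above. According to their methods, the authors trimmed reads with SeqPrep, aligned them with BWA to converted mm10, removed duplicates with Picard, used bases of quality 20 or more and called DMRs with bsseq without smoothing. A CpG entered when 2 or more of the 3 samples per group covered it 8-fold, and a DMR needed 3 or more neighbouring CpGs with t-test p-values below 0.05 and a difference of group means of 10% or more. The submitters' processing notes name bcl2fastq 1.8.4, BWA 0.6.1 and R 3.2.2. The deposited value is a group's mean methylation per DMR, given as a fraction and shown here in percent. Since the DMRs were selected by a test on the same samples, differences are those of selected regions, and no interval covers the error between mice. In 18,333 of 18,333 DMRs the first and last position was a CpG of GRCm38, and coordinates are given from 1 on that build. The midpoint was placed against 45,657 curated RefSeq transcripts of 26,089 genes, and GENCODE and predicted RefSeq transcripts served as a check. The nearest promoter in the deposited list matched the annotation for 357 regions, and its gene was the same for 313.

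Shares have Wilson intervals, differences of shares Newcombe intervals (95%, and 99.8% for the 22 motif differences together) and shifts Hodges-Lehmann intervals, each across regions and not mice. The Newcombe and Hodges-Lehmann intervals were tested on simulated data, the latter on values without ties. Python 3.11.15, numpy 2.4.6, scipy 1.17.1 and pandas 2.3.3 were used. CpG islands needed 200 bp, 50% GC and a ratio of observed to expected CpGs of 0.6 (strict limits 500 bp, 55% and 0.65). Named were the 10 largest losses, the 10 genes nearest to the most regions, the 5 runs with the most, 3 on either side of 50 kb, the 3 farthest and up to 3 genes per list, with ties cut by chromosome name sorted as text and then by start, which left out other runs of 3 DMRs, and sequences came from the largest losses and the runs (other gap neighbours, *Ror1*, *Slco2a1*, and any list gene beyond 3, were named after their values were seen). The regions, gene lists and motifs were chosen with earlier results of these data known. The results at 1 gene are not reported here.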

Additional observations from a re-analysis of the deposited data

How the results depend on the processing

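Of the alternatives in 11 settings, counting 1 DMR per run and requiring the whole DMR beyond 50 kb changed no call. A distance minimum of 100 kb left 152 regions with a median distance of 141.8 kb, a loss share of 10.8% among distal DMRs, a density ratio to near sequence of 0.212 (0.324 at 50 kb), 2 motif differences past the adjusted interval and a GC shift from distal gain of 1.0 that reached 0. With 25 kb these were 666 regions, 56.05 kb, 18.7%, 0.442 and 2, the GC shift from near loss was -0.50 and reached 0, and the repeat differences were -3.99 (near loss) and -4.43 (gain). Differences of at least 20 points gave a loss share of 25.9% a GC shift from gain of 0.50 (-0.5 to 1) and a repeat difference from gain of -5.66. DMRs of at least 5 CpGs numbered 51, with a median difference of -34.7 points, 96.8 kb, a loss share of 30.7%, a density ratio of 0.201 and 0 motif differences by Newcombe intervals. There the GC shift was -1.5 from near loss and, reversed in sign, -1.5 from gain (-3.5 to 0.5), and the repeat differences of -8.12 and -10.6 points reached 0. With predicted transcripts as genes 109 regions remained in number, with -31.4 points, 78.3 kb, 9.86%, 0 motif differences a GC shift from near loss of -1.5 that reached 0 and a repeat difference from gain of -18.98. Protein-coding genes alone gave 573 regions, 98.8 kb, 17.3%, 2 motif differences and a repeat difference from gain of -6.12. Windows of 100 bp gave 0 motif differences and a GC shift from gain of 1.0 that reached 0, a repeat difference from near loss of -5.20, and windows of 400 bp, counted as repeats when mostly masked, gave 2 and a repeat difference from near loss of -2.38 whose interval included 0. For single families 3 calls were lost, 4 were made and 11 differences that were not called changed sign. These were FOX minus near loss (0.468 at 25 kb, 3.64 with 5 CpGs, 1.48 with protein-coding genes), GATA minus near loss (-0.275 at 25 kb), ETS minus gain (-0.443 at 20 points, -7.76 with 5 CpGs) and KLF minus near loss (-1.26 with 5 CpGs, -1.98 with predicted transcripts, -0.134 with 1 DMR per run, -0.327 and -0.144 with 100 and 400 bp). Island overlap, with intervals that included 0, also changed sign, to -0.651, -0.653 and -0.946 from near loss (predicted transcripts, protein-coding genes, islands of 500 bp) and to -0.0818, -4.297, -0.393 and -0.575 from gain (20 points, 5 CpGs, protein-coding genes, islands of 500 bp). The causes were not tested. No paired analysis was possible because the list holds only group means, and for the same reason leaving out each replicate was not run. The depth of a DMR is unknown.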

Other observations

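The X chromosome was outside the rule. Of its 165 DMRs 31 were intergenic beyond 50 kb, and 30 of these were gains of methylation, beside 2086 gains and 365 losses on the autosomes. The single loss, near *Las1l*, a gene of ribosome biogenesis, was 63.7 kb from the TSS and had an infant mean of 58.8% and a young adult mean of 35.6%, a difference of -23.2 percentage points.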
